A study of Danio rerio with 5 samples.

Results

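Peaks of 2 chromatin marks were described in the terminal 1 Mb of zebrafish chromosomes, at both ends of 24 chromosomes (1 to 25 without 4, the long arm of which is repeat-rich heterochromatin). A peak belonged to an end when it started below position 1000000 or ended within 1000000 bp of the chromosome end, and each chromosome was taken to stop where the last peak of any of the 5 lists stopped. The 48 ends held 35083 of the 781830 peaks on chromosomes 1 to 25, chromosome 4 included (4.49%). Of these, 1568 of 31983 came from the H3K27me3 list of dome, a late blastula stage, and 416 of 6434 from the H3K27me3 list of 48 hours post fertilisation (48 hpf). The MethylCap lists gave 9999 of 220564 peaks at dome, 15041 of 330176 at 24 hpf and 8059 of 192673 at 48 hpf. The ends made up 48.0 Mb, or 3.71% of the span of the 24 chromosomes, and the interior of the same chromosomes made up 1247 Mb.

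All 5 libraries came from whole embryos of mixed AB and Tubingen stock with no mutation or treatment named, so that every value is an average over all cell types of the embryo. H3K27me3 was profiled by ChIP-seq with 1 antibody lot, and DNA methylation by MethylCap-seq, an affinity capture of methylated DNA followed by sequencing. Each stage and mark had 1 library, so no difference has a replicate check and no p-value was computed. Intervals in parentheses are 95% intervals (Wilson for shares, exact Clopper-Pearson carried over to density ratios). They cover counting error only and treat peaks as independent. Depth was unknown, because the lists hold no read counts, and a site with no call may still carry the mark at a level too low to be called.

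H3K27me3 is placed by Polycomb repressive complex 2 and marks silenced developmental genes in animal embryos. CpG methylation covers most of the zebrafish genome and leaves mainly CpG-rich promoters and other regulatory sequence free, and in vertebrates these marks tend to occupy different sites. The sequence next to telomeres, the subtelomere, is often built of repeats and duplicated segments, and in yeast and mammals it is known as a place of silent chromatin. The end of an assembled chromosome need not be the telomere itself. Methylation peaks began close to the left ends (low coordinates), with the first MethylCap peak of 24 hpf at most 7.01 kb from any of them. The right ends cannot show this, because each was set by the last peak of any list. The handling of reads that map to more than 1 place is not given in the sources used here, and the part of repeats in the values below was not tested.

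H3K27me3 peaks were denser at the ends than in the interior, more so at 48 hpf than at dome. At dome the ends held 32.7 peaks per Mb and the interior 22.7, a ratio of 1.44 (1.37 to 1.52), and the ends were denser on all 24 chromosomes, with ratios from 1.12 to 1.91. At 48 hpf the densities were 8.67 and 4.62 peaks per Mb, a ratio of 1.88 (1.70 to 2.07), and the ends were denser on 22 of 24 chromosomes. Chromosomes 8 and 15 were the exceptions, with ratios of 0.79 and 0.70. The share of sequence inside H3K27me3 peaks was 1.86% at the ends and 1.27% in the interior at dome, and 0.829% and 0.461% at 48 hpf. The dome list was also longer, with 29856 peaks on the 24 chromosomes against 6173. The end share was higher in the top decile of scores at both stages. At dome it was 6.26% (5.45 to 7.19%) there and 5.25% over all, and at 48 hpf 8.43% (6.48 to 10.9%) and 6.74%. The 48 hpf interval included the share over all. The number of end peaks did not rise steadily with score. At dome, decile 8 held 186 of them and the top decile 187. At 48 hpf, decile 6 and the top decile held 52 each. The difference between the stages rests on 1 library each and was not tested.

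Single ends varied widely in H3K27me3. The dome count per end ran from 15 through a median of 31 to 50, against 2, 22 and 137 in 1234 interior windows of 1 Mb. The 48 hpf count ran from 1 through 7 to 28, against 0, 4 and 27. The ends were thus shifted up as a group, yet they overlapped the interior windows, and 22 of the 48 at dome and 16 at 48 hpf exceeded the 90th percentile of those windows. The left ends (low coordinates) held 747 dome peaks and the right ends 821, and each side held 208 peaks of 48 hpf.

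**Figure D1:**
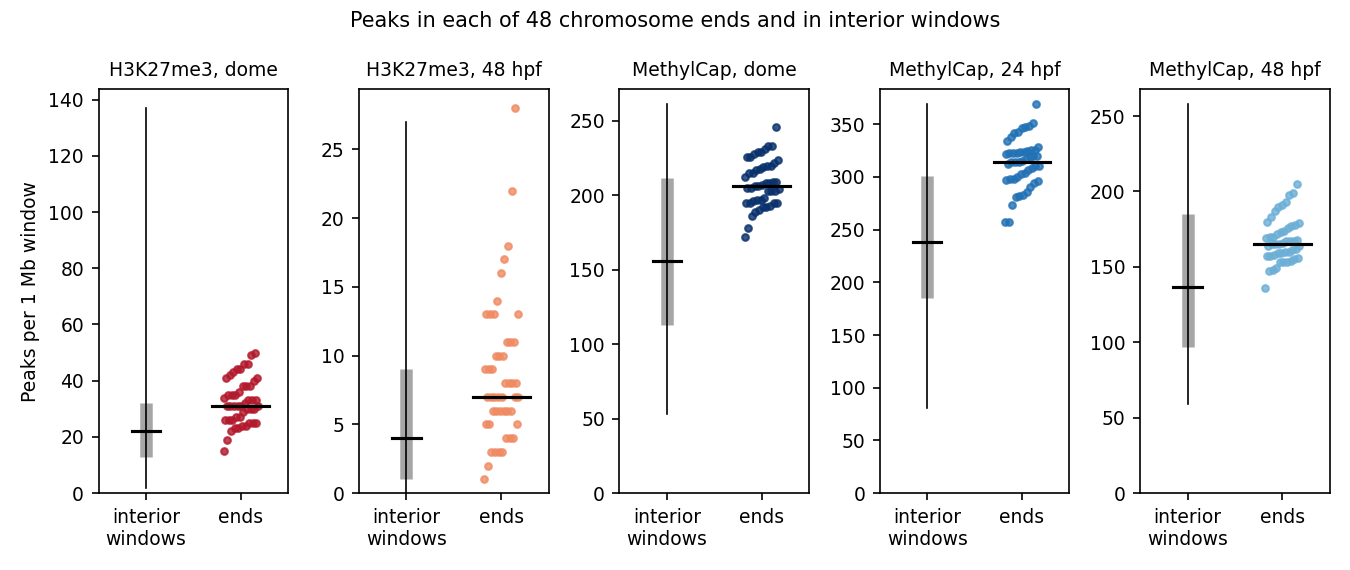
Peaks per 1 Mb in each of the 48 chromosome ends (points, 1 per end, with the median as a bar) and in 1234 interior windows (thin line from lowest to highest, grey band from the 10th to the 90th percentile, bar at the median), for the 5 lists on separate linear axes. The end medians of 31 and 7 H3K27me3 peaks lie above the interior medians of 22 and 4, and no MethylCap end lies under the 10th percentile of the interior.

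The H3K27me3 excess was largest in the outermost sequence. Within 50 kb of the end, dome peaks reached 51.2 per Mb and 48 hpf peaks 17.5 per Mb, and these peaks covered 4.24% and 2.07% of the sequence. The rise toward the tip was not steady. Densities were 34.6 and 10.2 per Mb from 100 to 200 kb, but 42.5 and 12.1 from 200 to 300 kb. From 750 kb to 1 Mb the densities were 28.8 and 7.08 per Mb, and from 2 to 3 Mb they were 26.9 and 4.60. Against the adjoining flank from 1 to 3 Mb, the density ratio of the ends was 1.23 (1.15 to 1.31) at dome and 1.81 (1.58 to 2.07) at 48 hpf.

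MethylCap peaks were also denser at the ends, but changed little toward the tip. Densities from 750 kb to 1 Mb were 205, 302 and 173 per Mb at dome, 24 hpf and 48 hpf. In the outermost 50 kb they were 217, 330 and 165. The ends held 208 peaks per Mb at dome, 313 at 24 hpf and 168 at 48 hpf, and the interior 160, 241 and 140. The ratios were 1.30 (1.28 to 1.33), 1.30 (1.28 to 1.32) and 1.20 (1.17 to 1.22), and the ends were denser on all 24 chromosomes at each stage. Per end, the lowest, median and highest counts were 172, 206.5 and 246 at dome. At 24 hpf they were 257, 314.5 and 369, and at 48 hpf 136, 165.5 and 205. The excess belonged to a zone wider than 1 Mb. Against the flank from 1 to 3 Mb the ratios were 1.03 (1.01 to 1.06) at dome, 1.07 (1.05 to 1.09) at 24 hpf and 0.962 (0.937 to 0.988) at 48 hpf. At 48 hpf the ends were therefore slightly poorer in methylation peaks than their flank, and denser than it on 7 of 24 chromosomes.

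**Figure D2:**
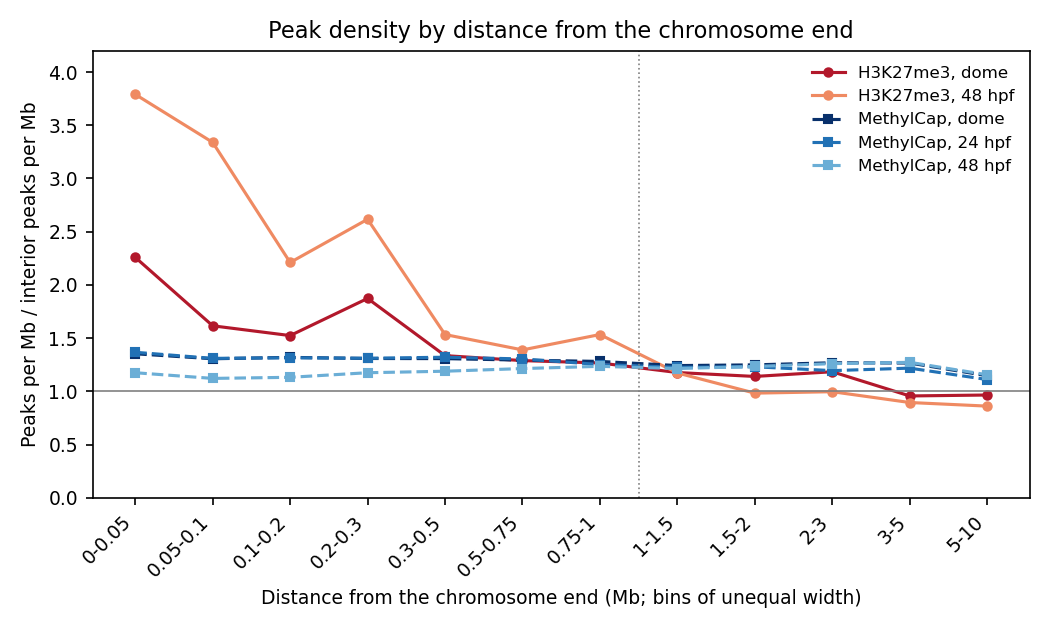
Peaks per Mb divided by the interior density of the same list (vertical axis) by distance from the chromosome end in Mb (horizontal axis, bins of unequal width), summed over 48 ends. The dotted line marks 1 Mb. Both H3K27me3 lists are densest at the tip, with 51.2 and 17.5 peaks per Mb in the outermost 50 kb. The MethylCap lists change little over the whole zone.

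The leading end for H3K27me3 was the same at both stages. The right end of chromosome 5 (74682189 to 75682188) held 50 dome peaks covering 49.7 kb and 28 peaks of 48 hpf covering 39.1 kb. Its 195, 297 and 155 MethylCap peaks at dome, 24 hpf and 48 hpf lay below the median of the ends. The left end of chromosome 16 followed at 48 hpf with 22 peaks, and it had the fewest MethylCap peaks of 48 hpf (136). None of its 22 peaks held a MethylCap peak of that stage, against 11.4% of the 48 hpf peaks over all 24 chromosomes. Ends with any such peak numbered 35 of 48, and the left end of chromosome 2 likewise had none among 13. The right end of chromosome 1 was rich at dome alone, with 49 peaks at dome and 7 at 48 hpf. The left end of chromosome 15 was lowest at both stages, with 15 peaks and 1 peak. The right end of chromosome 21 combined 46 dome H3K27me3 peaks with the highest MethylCap count of dome, 246.

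Fold enrichment, the deposited value of each peak over the local background of the caller, was lower at the ends for methylation peaks and differed little for H3K27me3. MethylCap peaks had lower folds at the ends at every stage. The median was 3.73 at the ends and 4.17 in the interior at dome, 3.68 and 4.09 at 24 hpf, and 4.05 and 4.24 at 48 hpf, and the ends had the higher median on 0 of 24 chromosomes in each list. The dome median increased inward, from 3.47 in the outermost 50 kb to 3.85 between 750 kb and 1 Mb and 4.10 between 5 and 10 Mb. Folds over the 90th percentile of the list made up 8.9%, 10% and 9.99% of all MethylCap peaks of dome, 24 hpf and 48 hpf. At the ends they made up 4.40% (4.02 to 4.82%), 5.22% (4.87 to 5.59%) and 5.26% (4.79 to 5.77%).

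H3K27me3 folds differed less. At dome the medians were 3.13 at the ends and 3.15 in the interior, and at 48 hpf 3.18 and 3.10, with a higher end median on 10 and 16 of 24 chromosomes. The dome median was 3.03 in the outermost 50 kb and 3.16 between 750 kb and 1 Mb, so a smaller difference of the same sign as in the MethylCap lists was present there. Folds over the 90th percentile, 10% of each H3K27me3 list, made up 11.2% (9.70 to 12.8%) of the dome peaks at the ends and 16.1% (12.9 to 19.9%) of the 48 hpf peaks at the ends. Median widths were close in the zones, 394 and 398 bp at dome and 719.5 and 767 bp at 48 hpf. Folds describe peaks within a list and are not like measures across lists.

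The typical MethylCap peak of the ends had a lower fold and a lower −log10 q value at each stage. Fold is relative to the local background, and the part of that background in the lower folds was not tested. The ends were poor in the top decile of scores and in folds over the 99th percentile, but rich in the very highest scores. Of the top decile, the ends held 3.24% (3.01 to 3.49%) at dome, 3.54% (3.34 to 3.75%) at 24 hpf and 3.07% (2.83 to 3.33%) at 48 hpf, which is below their share of all peaks. Among the 100 peaks with the highest score, a rounded measure of the −log10 q value, the ends held 21 (14.2 to 30.0%) at dome, 19 (12.5 to 27.8%) at 24 hpf and 23 (15.8 to 32.2%) at 48 hpf. The ends held 4.77%, 4.77% and 4.40% of the peaks of the 24 chromosomes in these lists, and 4.53%, 4.56% and 4.18% with chromosome 4 counted. For fold a wider cut was used, so score and fold are not compared at like cuts. Folds over the 99th percentile of the list made up 0.510%, 0.472% and 0.521% of end peaks at dome, 24 hpf and 48 hpf. In the interior they made up 0.949%, 0.894% and 0.891%. The single highest fold of the ends nevertheless ranked 3, 2 and 1 in the whole MethylCap lists of dome, 24 hpf and 48 hpf. For H3K27me3 the ends held 14 of the 100 peaks with the highest score (8.53 to 22.1%) at dome and 10 (5.52 to 17.4%) at 48 hpf. They held 5.25% and 6.74% of the peaks of the 24 chromosomes, and 4.90% and 6.47% with chromosome 4 counted. The 21 dome MethylCap peaks came from 13 different ends, and 12 lay within 200 kb of the end. Most of them, 17 of 21, overlapped an H3K27me3 peak, as did 69 of the other 79 peaks of the same 100.

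The peak with the highest score of the whole list lay at a chromosome end in 4 of the 5 lists. For all 3 MethylCap stages it was the same site, 5.42 kb from the right end of chromosome 22 (42253348 to 42255143 in the dome list), with folds of 7.92, 8.17 and 8.39 at dome, 24 hpf and 48 hpf. The site overlapped H3K27me3 peaks of dome (fold 2.16) and 48 hpf (3.55). A narrow dome H3K27me3 peak beside it, from 42255899 to 42256260, held no MethylCap peak and had rank 3 by score among the dome peaks of the ends (fold 4.61). For H3K27me3 at 48 hpf the leading peak was the only one of that stage in the left end of chromosome 15, from 36817 to 37443 with a fold of 10.7. A dome peak (fold 9.05) and MethylCap peaks of all 3 stages (folds 6.57, 4.42 and 7.18) overlapped it.

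Other strong sites are given in 2 groups, those with both marks and those with H3K27me3 alone. The groups were set by the rule for naming sites and are not a result. On the right end of chromosome 17, a site at 53841293 to 53842791 had H3K27me3 folds of 5.58 and 6.54 at dome and 48 hpf and MethylCap folds of 11.6, 11.9 and 12.2 at the 3 stages. Near the left end of chromosome 24, from 24853 to 28386, H3K27me3 folds were modest (2.67 and 3.38) while the MethylCap folds were 13.9, 17.7 and 18.5, the last being the highest fold in the entire 48 hpf list. On the left end of chromosome 2, from 135064 to 135753, H3K27me3 folds were 10.3 and 9.52 with no MethylCap peak at any stage. The same held on the right end of chromosome 15, from 46707838 to 46708229, with folds of 13.3 at dome and 8.0 at 48 hpf. A genome sequence of the build of the files was not used here, so neither the sequence of these sites nor their genes are given.

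H3K27me3 sites of the ends were found again at the other stage at least as often as those of the interior. Over all chromosomes used, 16.0% of dome peaks overlapped a 48 hpf peak. At the ends 323 of 1568 did (20.6%, 18.7 to 22.7%), and in the interior 4444 of 28288 (15.7%, 15.3 to 16.1%), with the higher share at the ends on 15 of 24 chromosomes. By distance the share was highest from 50 to 100 kb, 31.8% (23.0 to 42.1%) of 88 peaks. From 300 to 500 kb it was 16.2% (12.4 to 20.8%), and from 750 kb to 1 Mb it was 18.8% (15.1 to 23.3%). The counting error did not separate these bins from the interior, nor those from 100 to 200 kb and from 500 to 750 kb. The 48 hpf list was also denser at the ends, which raises the chance of an overlap, and the part of that density was not tested. In the opposite direction, 309 of 416 peaks of 48 hpf overlapped a dome peak (74.3%, 69.9 to 78.2%), against 72.3% (71.1 to 73.4%) in the interior and 72.4% over all, which the counting error did not separate.

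Methylation calls of the ends were less often shared between stages, although the lists were denser there. Of the dome MethylCap peaks at the ends, 52.6% (51.6 to 53.6%) overlapped a 48 hpf peak, against 60.6% (60.4 to 60.9%) in the interior and 60.3% over all, and the share was higher at the ends on 0 of 24 chromosomes. Of the 48 hpf peaks at the ends, 66.9% (65.9 to 67.9%) overlapped a dome peak, against 71.4% in the interior and 71.2% over all, again with 0 of 24 chromosomes higher. The share of dome peaks found at 48 hpf was 50.4% in the outermost 50 kb, 56.9% from 750 kb to 1 Mb and 61.3% from 2 to 3 Mb. The end peaks also had lower significance, with a median −log10 q of 5.30 against 5.94. With every score decile given equal weight, the shares were 55.6% and 60.5%, a difference of -4.94 points in place of -8.04.

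Shares in pairs with 24 hpf were also lower at the ends. Of the dome peaks at the ends, 80.3% overlapped a 24 hpf peak, against 82.6% in the interior and 82.5% over all. Of the 24 hpf peaks at the ends, 42.5% overlapped a 48 hpf peak, against 48.3% in the interior and 48.0% over all. Of the 48 hpf peaks at the ends, 79.1% overlapped a 24 hpf peak, against 82.3% in the interior and 82.2% over all. Of the 24 hpf peaks at the ends, 55.3% overlapped a dome peak, against 57.2% in the interior and 57.1% over all, and with equal weight for score deciles this last pair was 57.4% and 57.1%, the opposite order.

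Methylated regions of every stage pattern were denser at the ends, to differing degrees. The 3 lists were merged into 17344 regions at the ends and 338667 in the interior. Regions called at every stage were 1.11 times as dense at the ends (95.8 against 86.3 per Mb). Regions called at 24 hpf alone, the most numerous class at the ends, were 1.38 times as dense (108 against 78.2 per Mb). The ratio was 1.29 for regions at 24 and 48 hpf but not dome, and 1.27 for those at dome and 48 hpf but not 24 hpf. Regions called at dome alone were 1.56 times as dense (29.9 against 19.2 per Mb), those at 48 hpf alone 1.52 times, and those at dome and 24 hpf but not 48 hpf 1.56 times (64.9 against 41.7 per Mb). As a share of all regions, those called at every stage made up 26.5% (25.9 to 27.2%) at the ends and 31.8% (31.6 to 31.9%) in the interior. Those at dome and 24 hpf alone made up 17.9% (17.4 to 18.5%) and 15.3% (15.2 to 15.5%). A call missing at 1 stage may lie below the detection limit of that library.

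**Figure D3:**
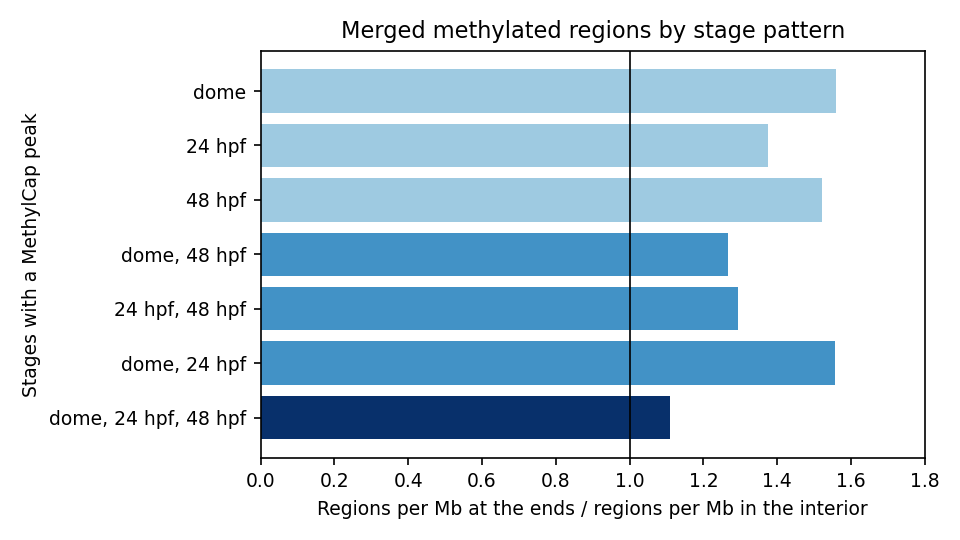
Merged MethylCap regions per Mb at the ends divided by regions per Mb in the interior (horizontal axis) for each combination of stages with a peak (vertical axis), with a line at equality. The ratio is 1.11 for regions with a peak at all 3 stages and 1.56 for those at dome alone.

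The marks coincided more often at the ends than in the interior at 48 hpf. At dome the pooled share was lower at the ends, also with equal weight for score deciles, but not in the top decile. Over all 24 chromosomes, 11.4% of the 48 hpf H3K27me3 peaks overlapped methylation of that stage. At the ends 91 of 416 did (21.9%, 18.2 to 26.1%), and in the interior 614 of 5757 (10.7%, 9.89 to 11.5%). The share was higher at the ends on 21 of 24 chromosomes and was 20.7% at left and 23.1% at right ends. Of the dome H3K27me3 peaks, 28.7% held a MethylCap dome peak over all, 389 of 1568 at the ends (24.8%, 22.7 to 27%) and 28.9% (28.4 to 29.4%) in the interior, and the ends were higher on 7 of 24 chromosomes. In the higher-scoring 50% of each list the dome difference was -0.129 points in place of -4.11. In the top decile of dome peaks the share was 24.6% (19.0 to 31.2%) at the ends and 19.1% (17.7 to 20.6%) in the interior, and in the outermost 50 kb it was 35% (27.1 to 43.7%). The other stages of MethylCap gave like values. With the dome list, 21.6% of the 48 hpf H3K27me3 peaks at the ends overlapped, against 12.5% in the interior and 13.2% over all. With the 24 hpf list the shares were 25.7%, 14.7% and 15.4%. For dome H3K27me3 peaks they were 31.8%, 34.2% and 34.0% with the 24 hpf list, and 25.4%, 26.6% and 26.5% with the 48 hpf list, where the intervals of ends and interior overlapped.

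Seen from the methylation peaks, the overlap with H3K27me3 of 48 hpf was higher at the ends in each list. It held for 106 of 8059 MethylCap peaks of 48 hpf (1.32%, 1.09 to 1.59%), against 0.396% (0.368 to 0.426%) in the interior and 0.436% over all, and on 22 of 24 chromosomes. For MethylCap peaks of dome the shares were 1.02%, 0.409% and 0.438%, and for those of 24 hpf 0.844%, 0.330% and 0.355%. Of the 106 peaks, 54 lay in the top score decile of their list, against 212 of 693 in the interior. The H3K27me3 list of 48 hpf covers more of the end sequence, as given above. Overlap with dome H3K27me3 differed less when all peaks were pooled. It was 4.2% at the ends, 4.43% in the interior and 4.42% over all for MethylCap peaks of dome. For those of 24 hpf it was 3.63%, 3.54% and 3.55%, and for those of 48 hpf 5.37%, 4.73% and 4.75%. The ends were higher in 3, 4 and 6 of 10 score deciles at dome, 24 hpf and 48 hpf, the top decile included. In that decile the shares were 16.6% (14.0 to 19.6%) against 8.97% at dome and 13.1% (11.2 to 15.2%) against 7.34% at 24 hpf. At 48 hpf they were 22.2% (19.0 to 25.9%) against 9.75%.

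Counted per Mb, H3K27me3 peaks of 48 hpf with methylation were 3.85 times as dense at the ends as in the interior (1.90 against 0.492 per Mb), and those without it 1.64 times (6.77 against 4.12 per Mb). At dome the order was the opposite, 1.24 times for peaks with a MethylCap peak and 1.52 times for peaks without. The flank from 1 to 3 Mb had a share of 13.0% (10.3 to 16.4%) at 48 hpf. By distance, the 48 hpf share was 35.7% (23.0 to 50.8%) of 42 peaks in the outermost 50 kb and 12.9% (7.38 to 21.7%) of 85 peaks from 750 kb to 1 Mb, where the interval included the interior value. It did not fall steadily, since the bin from 1 to 1.5 Mb gave 20.8% (14.7 to 28.5%) of 130 peaks.

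**Figure D4:**
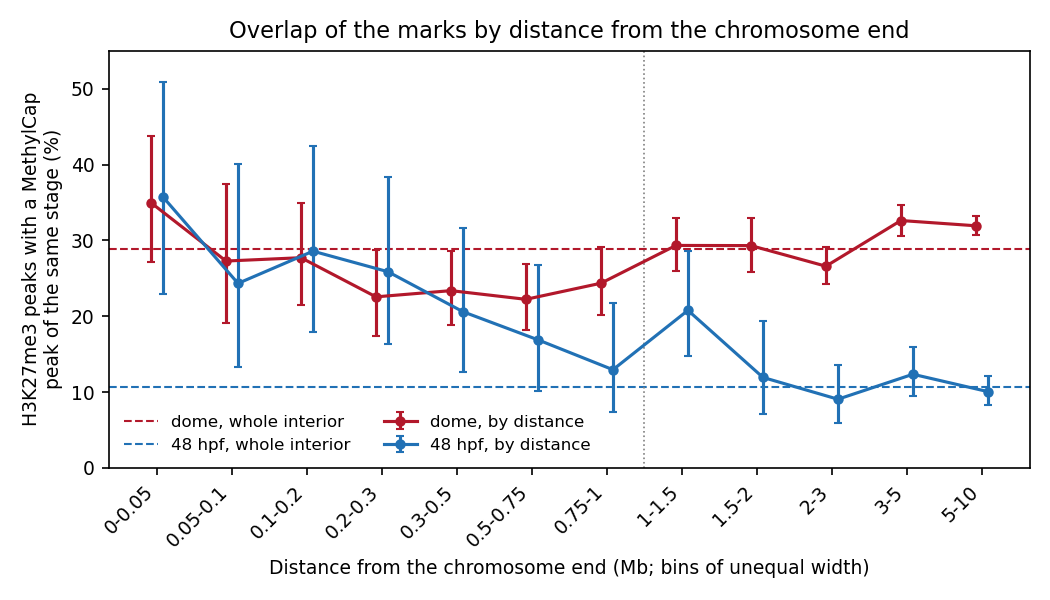
Share of H3K27me3 peaks that hold a MethylCap peak of the same stage (vertical axis, percent, bars are Wilson 95% intervals) by distance from the chromosome end in Mb (horizontal axis), with the interior share as dashed lines. At 48 hpf the share is 35.7% in the outermost 50 kb, 12.9% at 750 kb to 1 Mb and 20.8% in the next bin. The dome share lies below its interior value of 28.9% from 50 kb to 1 Mb.

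By bases, too, the marks met more often at the ends at 48 hpf. At that stage, 10.1% of the H3K27me3 bases of the ends lay in MethylCap peaks, which cover 5.98% of the end sequence, a ratio of 1.69. In the interior the values were 3.68% and 5.25%, a ratio of 0.702. At dome the ratio was 1.59 at the ends (14.2% against 8.91%) and 2.17 in the interior (15.3% against 7.07%), a log2 ratio of ends to interior of -0.44 that reversed to 0.20 in the higher-scoring 50% of each list. The 48 hpf share of H3K27me3 peaks with methylation was higher at the ends in each of 10 bins of significance. In deciles 2 to 5 the intervals of ends and interior overlapped. In decile 3 the share was 17.9% (7.88 to 35.6%) of 28 peaks, against 14.3% (11.7 to 17.3%). It was 31.4% (18.6 to 48.0%) of 35 peaks in the lowest decile, against 15.3% in the interior, and 38.5% (26.5 to 52.0%) of 52 peaks in the highest, against 17.0% (14.1 to 20.3%).

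The 91 doubly marked peaks of 48 hpf were spread over 35 of the 48 ends, and 24 of them lay within 100 kb of the end. The right ends of chromosomes 16 and 17 and the left end of chromosome 18 held 7 each. Without these 3 ends, chosen after their values were seen, the excess over the interior was 8.20 points in place of 11.2. Most of the 91 sites were also called in other lists. MethylCap peaks of all 3 stages overlapped 66 of them (72.5%, 62.6 to 80.6%), and 70.5% (66.8 to 74.0%) of the interior peaks with both marks. A dome H3K27me3 peak overlapped 73 (80.2%, 70.9 to 87.1%), against 66.9% (63.1 to 70.5%) in the interior. Peaks of all 5 lists met at 57 of them (62.6%, 52.4 to 71.9%), against 48.5% (44.6 to 52.5%).

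H3K27me3 sites called at both stages overlapped methylation more often at the ends in the dome lists as well. Of the dome peaks shared with 48 hpf, 73 of 323 held a MethylCap dome peak at the ends (22.6%, 18.4 to 27.5%), against 11.6% (10.7 to 12.6%) in the interior. Of the dome peaks without a 48 hpf peak, 25.4% (23.0 to 27.9%) of 1245 did at the ends, against 32.1% (31.6 to 32.7%). The 2 classes of dome peaks thus differed from the interior in opposite directions, and the dome-only class was the more numerous. Among 48 hpf peaks, 73 of 309 shared ones held a MethylCap peak of 48 hpf (23.6%, 19.2 to 28.7%), against 9.88% (9.01 to 10.8%) in the interior. The 107 peaks of 48 hpf without a dome peak gave 16.8% (10.9 to 25%) against 12.7% (11.2 to 14.4%), and their intervals overlapped.

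Wide H3K27me3 domains were made by joining peaks within 5 kb and kept from 10 kb up. They differed in their methylation, and 1 end could hold domains with and without it. The ends held 15 dome domains (0.312 per Mb against 0.140 in the interior, ratio 2.23, 1.22 to 3.78) and 7 domains of 48 hpf (ratio 3.19, 1.23 to 7.01). Of the 15, 9 had no base in a MethylCap peak at any stage, 2 had up to 3.04%, and 4 had more than 15% at every stage. In the interior, 86 of 175 dome domains had none, 42 had up to 5%, 4 had more than 15% at every stage and 43 lay in between. The share with none was 60.0% (35.7 to 80.2%) at the ends and 49.1% (41.8 to 56.5%) in the interior, with overlapping intervals. The share with more than 15% at every stage was 26.7% (10.9 to 52.0%) and 2.29% (0.892 to 5.73%). The limit of 15% was set after the values were seen. The right end of chromosome 21 held a domain without a MethylCap base and one with more than 15%. All 7 domains of 48 hpf were at most 3.38% methylated.

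Domains without methylation are shown by the right end of chromosome 5. A dome domain from 75405128 to 75424797 joined 6 peaks over 19.7 kb, with 58.1% of its bases in dome and 25.6% in 48 hpf peaks and none in MethylCap peaks. A domain from 74915281 to 74930650 on the same end was likewise free of MethylCap peaks. The others without a MethylCap base were on chromosome 2 (both ends), the right ends of chromosomes 13 and 21, and the left ends of chromosomes 14 and 16.

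The methylated domains lay on the left end of chromosome 18 and the right ends of chromosomes 20, 21 and 22. On chromosome 18, from 35531 to 53837, 9 dome peaks covered 38.0% of 18.3 kb and 48 hpf peaks 23.0%. MethylCap peaks covered 37.0%, 35.5% and 34.7% at dome, 24 hpf and 48 hpf. Dome folds there were low, 1.51 to 2.42 for H3K27me3 and 1.32 to 1.99 for MethylCap. The dome medians of all ends were 3.13 and 3.73. On chromosome 20, from 55785141 to 55797456, MethylCap peaks covered 47.7%, 50.3% and 44.9% at the same stages. H3K27me3 peaks covered 28.0% at dome and 9.18% at 48 hpf. Dome folds there were 1.71 to 3.41 for H3K27me3 and 1.71 to 6.04 for MethylCap. On chromosome 22 the domain from 42247169 to 42258391, 2.17 kb from the end, was 16.0%, 16.0% and 15.6% methylated. All of this lay in the leading MethylCap site given above, and the rest of the domain held no MethylCap peak. The 50 kb windows that hold most of the domains of chromosomes 20 and 18 had the most MethylCap sequence of all 960 end windows, 39.4 and 35.5 kb summed over the 3 stages. None of 24923 interior windows reached either value.

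**Figure D5:**
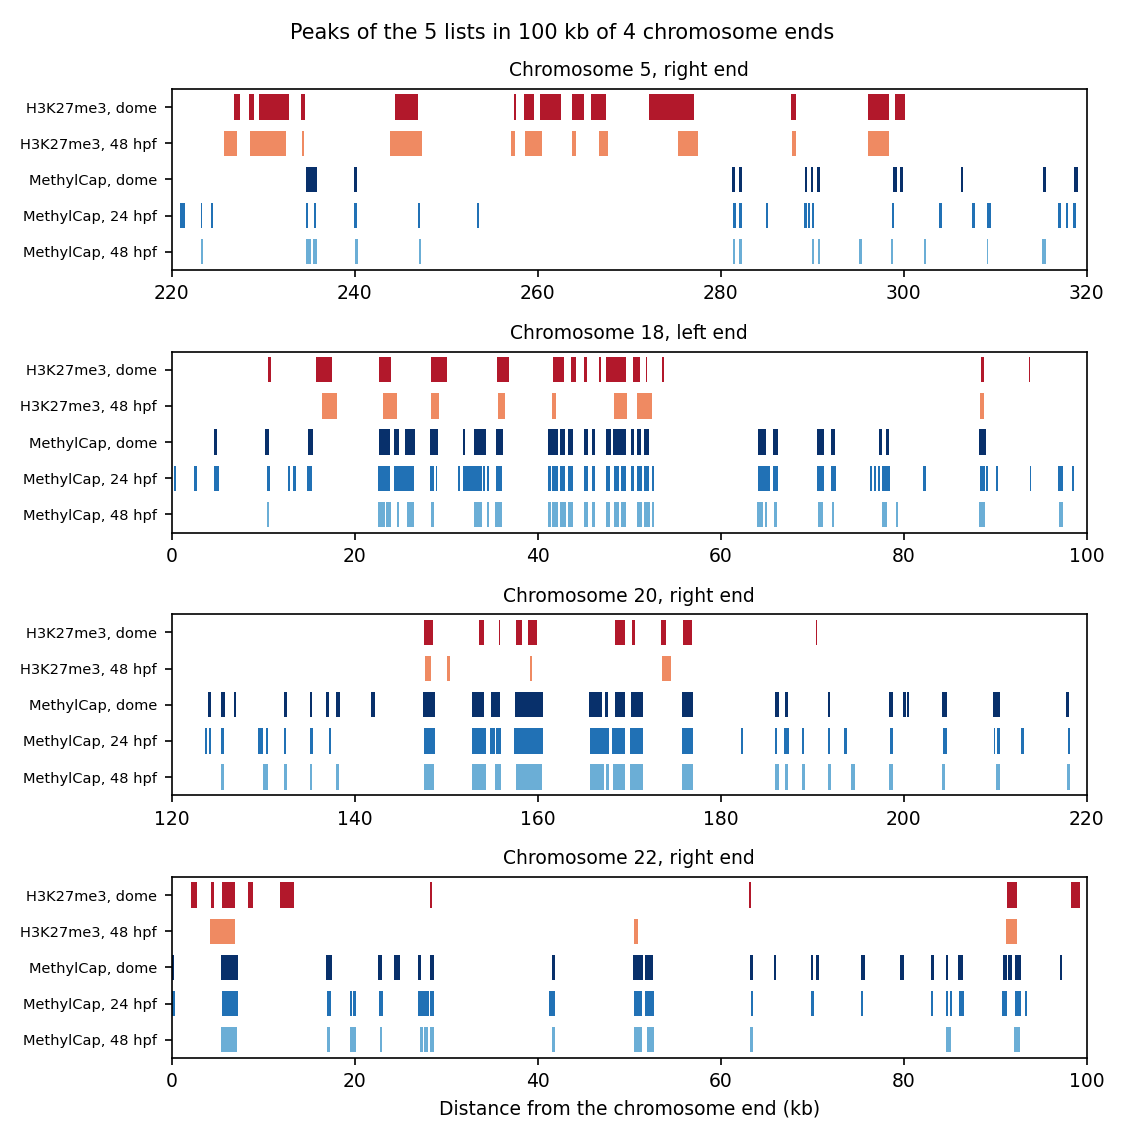
Peaks of the 5 lists (boxes, 1 row per list) in 100 kb of 4 chromosome ends by distance from the end in kb (horizontal axis). On chromosome 5 the domain of 19.7 kb that begins 257.4 kb from the end has no MethylCap peak. On chromosomes 18 and 20 peaks of both marks overlie each other at several places in the domain. On chromosome 22 they do so within the domain at a single site, with a dome MethylCap peak from 5.42 to 7.21 kb.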

How the data were processed

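The files were 1 peak list per library. Per the submitters' processing notes, CASAVA 1.8.2, Bowtie2 2.2.1, SAMtools and MACS2 were used on the build danRer7. Parameters, an input control and pooling of embryos are not given in the sources used here. Lists of H3K27me3 have the 9-column layout of broad peaks, where values are averages over a peak, and the MethylCap lists the 10-column layout of narrow peaks. The deposited fold is the enrichment over the local background of the caller. The score and both −log10 values (of p and of q) are deposited as the caller wrote them. Fold, score and the q value served only to rank, filter or describe peaks of the same list.

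Coordinates are counted from 1 on danRer7. Peaks overlapping by at least 1 bp were called overlapping. Bases were counted on merged peaks cut to the zone. Computations used Python 3.11.15, numpy 2.4.6, pandas 2.3.3, scipy 1.17.1 and matplotlib 3.10.9, and the interval routines were tested on simulated data. In each list, named peaks were the 5 leading by score and the 5 leading by width, the 5 leading sites found at both stages with and without methylation, the 3 ends with the most and the fewest peaks per list, and the 5 leading windows of 50 kb. The text prints a selection of these. The members and comparisons were chosen with earlier results of these data known, and the joined domains, the flank, the sets of 100 peaks and the omission of 3 ends were chosen after values were seen. Other settings were the width of the zone, a stricter threshold, the overlap required, chromosome 4, the outermost 100 kb, score deciles, covered bases, and each chromosome left out in turn.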

Additional observations from a re-analysis of the deposited data

Results flagged for a closer look

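For 3 measures of H3K27me3, the ends differed from the interior in opposite directions at dome and 48 hpf when all peaks were counted. Each rests on 1 library per stage, and the change from dome to 48 hpf was not tested. The share of H3K27me3 peaks with a MethylCap peak of the same stage was lower at the ends by 4.11 points at dome (-4.11) and higher by 11.2 points at 48 hpf, a gap of 15.3 points. The end share itself was lower at 48 hpf, 24.8% at dome and 21.9% at 48 hpf. The interior share was 28.9% and 10.7%, so the interior differed more between the stages than the ends. The log2 ratio of ends to interior for the base overlap of the marks was -0.44 at dome and 1.27 at 48 hpf, a gap of 1.71. Before taking log2, the overlap ratio at dome and 48 hpf was 1.59 and 1.69 at the ends and 2.17 and 0.702 in the interior. The dome log2 ratio turned to 0.20 in the higher-scoring 50% of each list, so its direction depends on the peaks counted. The share difference at dome was -0.129 points in the same peaks. The median H3K27me3 fold of the ends minus that of the interior was -0.024 at dome and 0.078 at 48 hpf, a gap of 0.103. The last is small beside the quartiles of fold at the ends, 2.93 to 3.44 at dome and 2.85 to 3.56 at 48 hpf.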

How the results depend on the processing

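Under the other settings, not all of which apply to each of the 18 results, 77 values moved by less than their error, 47 moved by more and 3 changed direction; the cause was not tested. With each chromosome left out in turn, all 432 values kept their direction and moved by less than their error. In these runs the pooled density ratio of 48 hpf H3K27me3, for example, ranged from 1.77 to 1.94. The share of those peaks with methylation minus the interior share ranged from 9.88 to 12.4 points. The overlap of 50% of the shorter peak moved none of the 6 results it applies to. The changes of direction were these. In the higher-scoring 50% of each list, the log2 base overlap of the marks at dome was 0.20, and the share of 48 hpf H3K27me3 peaks found at dome was -1.95 points from the interior. Against the flank of 1 to 3 Mb, chosen after seeing the data, the density ratio of MethylCap at 48 hpf was 0.962.

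With a zone of 0.5 Mb, density ratios were 1.59 (H3K27me3 dome), 2.27 (H3K27me3 48 hpf) and 1.16 (MethylCap 48 hpf). Median fold differences of MethylCap were -0.475, -0.509 and -0.266 at dome, 24 hpf and 48 hpf. Share differences were -10.2 points for MethylCap of dome found at 48 hpf and 15.6 points for the marks at 48 hpf, and the log2 base overlaps were -0.28 (dome) and 1.72 (48 hpf). With a zone of 2 Mb, density ratios were 1.31 and 1.48 for H3K27me3 at dome and 48 hpf and 1.28 for MethylCap at 24 hpf, and the MethylCap fold differences were -0.392, -0.347 and -0.112. Share differences were then 2.23 points (H3K27me3 dome at 48 hpf), -4.97 points (MethylCap dome at 48 hpf) and -2.69 points (MethylCap 48 hpf at dome).

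In the higher-scoring 50%, density ratios were 1.52 for H3K27me3 at dome and 1.07, 1.14 and 1.05 for MethylCap at dome, 24 hpf and 48 hpf. Fold differences were 0.164 for H3K27me3 at 48 hpf and -0.345, -0.384 and -0.302 for MethylCap. The share differences were -9.41 points (MethylCap 48 hpf at dome) and -0.129 points (marks at dome), and the log2 base overlap at 48 hpf was 1.96. By covered bases the MethylCap density ratios were 1.26 at dome and 1.14 at 48 hpf. With chromosome 4 the MethylCap fold difference at dome was -0.405. Without the outermost 100 kb the 48 hpf H3K27me3 density ratio was 1.69 and the MethylCap fold difference at 24 hpf -0.392. With equal weight for score deciles the MethylCap share differences were -4.94 (dome at 48 hpf) and -2.51 points (48 hpf at dome).

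Against the flank, density ratios were 1.23 (H3K27me3 dome), 1.03 (MethylCap dome) and 1.07 (MethylCap 24 hpf). Fold differences were -0.00317 for H3K27me3 at dome and -0.151, -0.143 and -0.100 for MethylCap, and log2 base overlaps -0.0533 (dome) and 0.974 (48 hpf). Without the 3 ends with most doubly marked peaks, also chosen after seeing the data, the log2 base overlap at 48 hpf was 0.964. No paired analysis was possible because each group has 1 library. Read depth is unknown, so differences between lists and differences in depth cannot be told apart.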
